A study of Mus musculus with 2 samples.

Results

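The 10 genes described here are the Dusp (dual-specificity phosphatase) genes Dusp1, Dusp2, Dusp4, Dusp5, Dusp6, Dusp7, Dusp10, Dusp11, Dusp16 and Dusp22, taken by gene name from GENCODE M21 among 55536 annotated genes. They were followed in the transcriptome of regulatory T cells, the CD4 T cells that restrain immune responses under the transcription factor Foxp3. Polyadenylated RNA of primary cells from a male mouse aged 9 weeks was read as 2 technical libraries of 1 biological replicate. The strain, Foxp3GFP-DTRCD4CreERT2R26tdTomato, carries a GFP and diphtheria toxin receptor allele at Foxp3, a tamoxifen-inducible Cre at CD4 and tdTomato at R26, and the labels give no tamoxifen or toxin treatment. No other group was present, so the account gives levels and transcript make-up first and differences between the libraries after that. The labels do not say whether the libraries came from separately handled cells. The p-values below allow only for counting error between the libraries, except where a dispersion is stated.

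Mitogen-activated protein kinases (ERK, JNK and p38) are switched on by phosphorylation of a threonine and a tyrosine in their activation loop, and MAP kinase phosphatases switch them off by removing both phosphates with a catalytic cysteine. Many of these phosphatases are themselves transcribed in response to the kinases that they inactivate, which makes them feedback inhibitors of signals such as those of the T cell receptor. Dusp1, Dusp2, Dusp4 and Dusp5 encode inducible nuclear enzymes, Dusp6 and Dusp7 encode cytoplasmic enzymes selective for ERK, and Dusp10 and Dusp16 encode enzymes that act mainly on JNK and p38. The remaining members are atypical and lack the kinase-binding domain: Dusp22 encodes a small phosphatase that dampens Lck signalling in T cells, and Dusp11 encodes a phosphatase that acts on the triphosphate end of RNA. The name MAP kinase phosphatase therefore fits 8 of the 10 genes, and Dusp11 and Dusp22 are kept apart below.

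The shared catalytic signature is shown first because it sets the enzymes of this family side by side. Each line gives 30 bases of the coding sequence of a protein-coding transcript in GENCODE M21 (mm10), 5′ to 3′, with the codons of the catalytic cysteine and of the phosphate-binding arginine in capitals.
Dusp1 (chr17:26506586-26506615, minus strand): catTGCcaggccggcatctccCGGtcagcc
Dusp4 (chr8:34818433-34818462, plus strand): cacTGCcaggccggcatctccCGAtcagcc
Dusp2 (chr2:127337616-127337645, plus strand): cacTGCcaagctggcatctctCGCtcagcc
Dusp10 (chr1:184074293-184074322, plus strand): cacTGCcaggccggcgtgtccCGAtccgcc
Dusp5 (chr19:53540951-53540980, plus strand): cacTGCgaagctggggtttccCGGtcgccc
Dusp6 (chr10:99266027-99266056, plus strand): catTGCttggcaggtatcagcCGCtctgtc
Dusp7 (chr9:106373674-106373703, plus strand): cacTGCctagcaggcatcagcCGTtcagtg
Dusp16 (chr6:134720553-134720582, minus strand): cacTGCttagctgggatctctCGCtccgcc
Dusp22 (chr13:30705696-30707954, plus strand): catTGCctggctggggtctccAGGagtgtg
Dusp11 (chr6:85952319-85952348, minus strand): cacTGCacccatggcttaaatAGGactggc
The signature of Dusp4 matched that of Dusp1 at 28 of 30 bases, those of Dusp2 and Dusp10 at 25, and those of Dusp5, Dusp6, Dusp7 and Dusp16 at 21. Dusp22 matched at 20 bases and Dusp11, the RNA phosphatase, at 14. In Dusp22 the signature is divided between neighbouring exons, and its coordinates include the intron, whereas in the other 9 genes it lies within 1 exon. Of 19 protein-coding transcripts annotated for the 10 genes, 16 held these codons. The exceptions were Dusp10-202, Dusp16-204 and Dusp22-203.

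Gene counts, as rounded expected counts, summed to 20890962 in technical replicate 1 and 18570935 in technical replicate 2. All 8 genes of the regulatory T cell marker list were detected, with Foxp3 at 88.6 and 83.6 TPM (a level scaled for transcript length and depth). That list also holds Cd4, Cd3e and Trac, which other T cells express. Of 31 markers of 8 other cell classes 13 were detected, with summed levels of 287 and 310 TPM. The neutrophil genes S100a8 and S100a9 and the endothelial gene Cdh5 were at 0 in both libraries, and the erythroid list was the highest, at 179 and 216 TPM. Cd79b of the B cell list had 32.71 and 32.45 TPM, and Cd8b1 of the CD8 T cell list 25.47 and 22.74 TPM. Of 5 monocyte or macrophage markers 4 were detected, and that list summed to 29.8 and 21.9 TPM. No dendritic cell or neutrophil marker was detected. The part of other cells in the levels below was not tested. In a bulk profile, fewer cells that express a gene and less RNA per cell cannot be told apart.

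All 10 genes were detected, which here means a level of 1 TPM or more in each library. Their levels ran from Dusp11 at 161 ± 9.55 TPM (mean ± SD, n = 2 technical libraries) to Dusp16 at 1.37 ± 0.0707 TPM. Dusp11 alone made up 60.5% and 55.7% of the summed TPM of the 10 genes in technical replicates 1 and 2. The 8 MAP kinase phosphatases summed to 108 and 119.8 TPM.

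**Figure D1:**
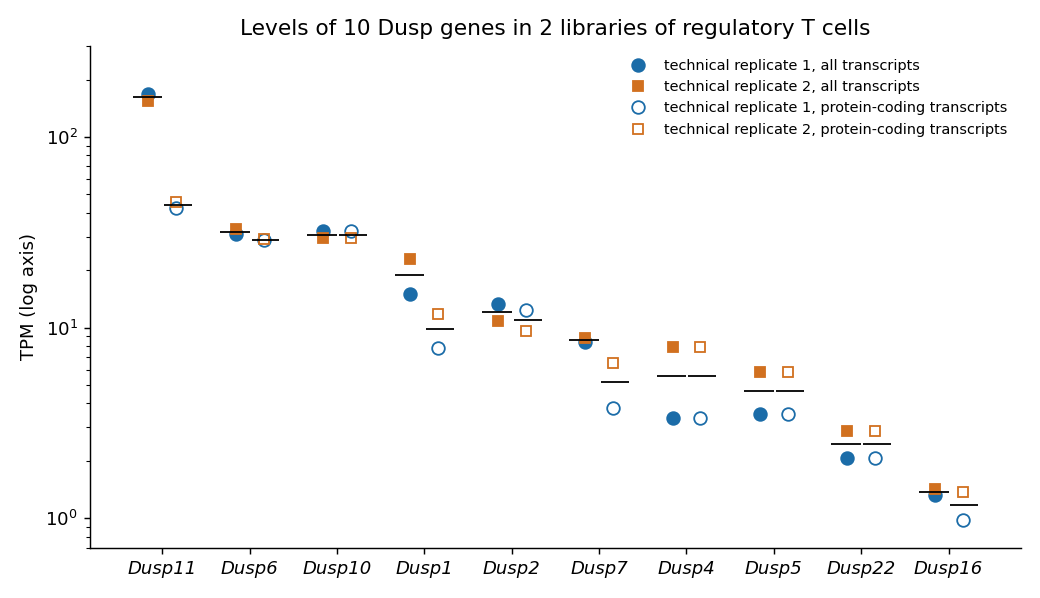
Levels of the 10 Dusp genes in TPM on a log axis, with a point for each technical library and a line at the mean, over all transcripts (filled) and over protein-coding transcripts (open). Dusp11 is the highest on both measures, at 161 and 44.1 TPM, and Dusp16 the lowest, at 1.37 and 1.18 TPM.

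In order of mean TPM, Dusp11 was followed by Dusp6, Dusp10, Dusp1, Dusp2, Dusp7, Dusp4, Dusp5, Dusp22 and Dusp16. Neighbours in this order whose library values overlapped were Dusp6 and Dusp10, and Dusp4 and Dusp5. For the remaining neighbours both libraries of the higher gene lay above both libraries of the lower. Dusp11 stood 5.06 times above Dusp6, and the other steps were between 1.04 and 1.90 times. In the ranking of all annotated genes by mean TPM, Dusp11 was at 1089, Dusp6 at 4979 and Dusp16 at 12979.

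Among the cytoplasmic ERK phosphatases, Dusp6 (ENSMUSG00000019960.8, chromosome 10, 99263231 to 99267489, plus strand, mm10) had 30.9 and 32.8 TPM from 1123 and 990 expected counts. Dusp7 (ENSMUSG00000053716.9, chromosome 9, 106368632 to 106375724, plus strand) had 8.39 and 8.78 TPM from 232 and 274 expected counts. Each of these genes was close to equal in the libraries on the TPM scale, and Dusp6 had the highest mean of the 8 MAP kinase phosphatases over all transcripts, although Dusp10 was higher in technical replicate 1.

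Of the JNK and p38 phosphatases, Dusp10 (ENSMUSG00000039384.8, chromosome 1, 184013302 to 184075636, plus strand) had 31.97 and 29.3 TPM from 1238 and 963 expected counts. Dusp16 (ENSMUSG00000030203.17, chromosome 6, 134715468 to 134792625, minus strand) had 1.32 and 1.42 TPM from 59 and 67 expected counts. Of these partners in substrate preference, Dusp10 was thus the gene with the higher level in both libraries. At the depth of Dusp16, 3 counts corresponded to 0.0671 and 0.0636 TPM, so that its level was well above the limit that a count of 0 allows.

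Among the nuclear inducible phosphatases, Dusp1 (ENSMUSG00000024190.7, chromosome 17, 26505590 to 26562128, minus strand) had 14.9 and 22.98 TPM from 328 and 472 expected counts. Dusp2 (ENSMUSG00000027368.6, chromosome 2, 127336159 to 127338376, plus strand), first known from activated lymphocytes, had 13.2 and 10.8 TPM from 283 and 190 expected counts. In technical replicate 1 these genes were close to each other, while in technical replicate 2 Dusp1 was clearly the higher. Dusp4 (ENSMUSG00000031530.6, chromosome 8, 34807297 to 34819894, plus strand) had 3.34 and 7.86 TPM from 127 and 253 expected counts. Dusp5 (ENSMUSG00000034765.6, chromosome 19, 53529109 to 53542431, plus strand), an ERK-selective enzyme, had 3.50 and 5.84 TPM from 119.72 and 169.38 expected counts. Dusp4 and Dusp5 were both low and both higher in technical replicate 2. The counts of Dusp5 are not whole, and neither are those of AC137853.2, an antisense gene over its 5′ end with 17.28 and 12.62 expected counts. The pair summed to whole numbers, 137 and 182. The sources used here do not state whether counting used strand, so how reads were divided within the pair is uncertain.

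Of the atypical members, Dusp11 (ENSMUSG00000030002.15, chromosome 6, 85942268 to 85961667, minus strand) had 168 and 154 TPM from 4960 and 4323 expected counts. Dusp22 (ENSMUSG00000069255.13, chromosome 13, 30659999 to 30711231, plus strand) had 2.06 and 2.85 TPM from 66 and 60 expected counts. The highest and the second-lowest level of the 10 genes thus belonged to the genes that are not typical MAP kinase phosphatases.

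A gene's TPM adds up all of its annotated transcripts, whether or not they encode the enzyme. The 10 genes had 40 annotated transcripts, of which 9 had 0 expected counts in both libraries, and shares below are the percent of the gene's TPM. Dusp4 and Dusp5 had a single annotated transcript each, and Dusp10 had 100% of its TPM in Dusp10-201 in both libraries. Protein-coding transcripts held 93.2% and 88.4% of Dusp6, 93.7% and 88.9% of Dusp2, 100% of Dusp22, and 74.3% and 96.1% of Dusp16. In 6 of the 10 genes the same transcript led in both libraries. The exceptions were Dusp1, Dusp7, Dusp11 and Dusp22.

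**Figure D2:**
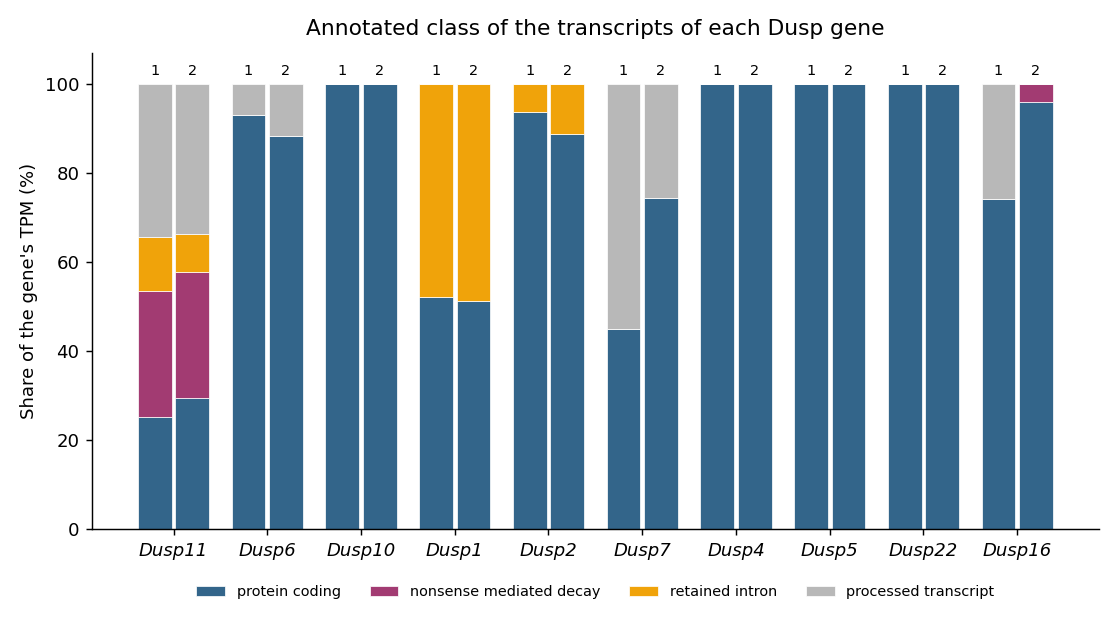
Share of each gene's TPM, in percent, in transcripts of each annotated class, with 1 bar for each technical library (1 and 2 above the bars). Dusp1, Dusp7 and Dusp11 are the genes with a large share outside the protein-coding class in both libraries, and the protein-coding share of Dusp11 is 25.4% and 29.6%.

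Dusp11 had the most divided transcript set, with 8 transcripts above 0 in both libraries. The protein-coding transcript Dusp11-201, 6435 bases long, had 42.6 and 45.6 TPM, or 25.4% and 29.6% of the gene. The transcript Dusp11-207, 677 bases long and annotated as a target of nonsense-mediated decay, had 47.5 and 43.7 TPM, or 28.3% in each library. Its annotated coding sequence holds the catalytic codons, and Dusp11 transcripts with these codons had 90.1 and 89.4 TPM. Transcripts with no coding sequence held the rest. By reads rather than by TPM the picture differed: Dusp11-201 took 77.4% and 80.7% of the gene's expected counts, which unlike TPM are not scaled for length. Counting protein-coding transcripts alone, the mean of Dusp11 was 44.1 TPM in place of 161 TPM, and it was still the highest of the 10 genes, with Dusp10 next at 30.7 TPM and then Dusp6 at 28.9 TPM. In the same measure Dusp1 went from 18.96 to 9.82 TPM and Dusp7 from 8.59 to 5.17 TPM. Dusp2, at 11.0 TPM, was then above Dusp1, and Dusp4, at 5.60 TPM, above Dusp7.

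Dusp1 was the member with the largest share in retained introns. The retained-intron transcripts Dusp1-203 and Dusp1-204 together held 47.7% of its TPM in technical replicate 1 and 48.6% in technical replicate 2. In expected counts they held 143.37 and 204.35 reads, against 184.63 and 267.66 for the coding transcripts. The share of retained-intron transcripts was therefore close to equal in the libraries, although the gene's level was not. The annotated span of Dusp1 also takes in distal exons of Dusp1-201 and Dusp1-205, which had 0 expected counts in both libraries. Dusp1-203 keeps the intron at chromosome 17, 26507205 to 26507573 (369 bases), and its boundary is shown because it tells Dusp1-203 from Dusp1-202. It does not mark the retained-intron class as a whole, and Dusp1-204, with 2 exons, was not compared there. Each line gives the last 20 bases of the exon before it, then in capitals the 20 bases that follow in the transcript.
Dusp1-202, spliced: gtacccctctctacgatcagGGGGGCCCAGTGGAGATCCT
Dusp1-203, intron retained: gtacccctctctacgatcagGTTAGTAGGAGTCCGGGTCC
The retained form runs on into the GT that opens the intron. Within the coding class the libraries differed: Dusp1-202 had 2.61 and 10.4 TPM and Dusp1-206, which differs in its first exon, had 5.21 and 1.39 TPM. The authors' deposited credibility bounds (an interval from the quantifier for its own estimate, which need not contain the TPM) ran from 0.739 to 4.08 and from 5.57 to 11.1 TPM for Dusp1-202, with no overlap. Those of Dusp1-206 overlapped. Both encode the catalytic signature, and the coding transcripts of Dusp1 summed to 7.82 and 11.8 TPM.

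In Dusp7 the libraries differed in how reads were assigned to transcripts. The coding transcript Dusp7-201 had 3.78 and 6.55 TPM, while Dusp7-204, a non-coding transcript of 1020 bases that lies within the last exon of Dusp7-201, had 4.61 and 2.23 TPM. The bounds of Dusp7-201 ran from 2.80 to 3.99 and from 4.86 to 6.55 TPM and did not overlap, while those of Dusp7-204 did. With this shift the gene's mean transcript length in the tables went from 2007 to 2655 bases. Its CPM (counts scaled to depth) was 11.1 and 14.8 while its TPM was 8.39 and 8.78, so the libraries differ more in its counts than in its TPM.

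For the rarest members the make-up could not be settled at this depth. Dusp22-201 had 11.55 and 23.64 expected counts and Dusp22-202 had 51.35 and 31.11, and their shares went from 35.8% to 62.4% and from 59.6% to 30.8%. The bounds of each overlapped between libraries. In Dusp16 the leading transcript was Dusp16-204, at 0.41 and 0.78 TPM from 18.78 and 30.25 counts, which is coding but lacks the catalytic signature. Transcripts of Dusp16 with the signature had 0.57 and 0.59 TPM. Over the 10 genes, 28 transcripts had at least 10 counts over both libraries, and in 5 of them the bounds did not overlap, against 9.77% of all such transcripts. These were Dusp1-202, Dusp2-201, Dusp4-201, Dusp5-201 and Dusp7-201. Of these, Dusp2-201 alone was lower in technical replicate 2.

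**Figure D3:**
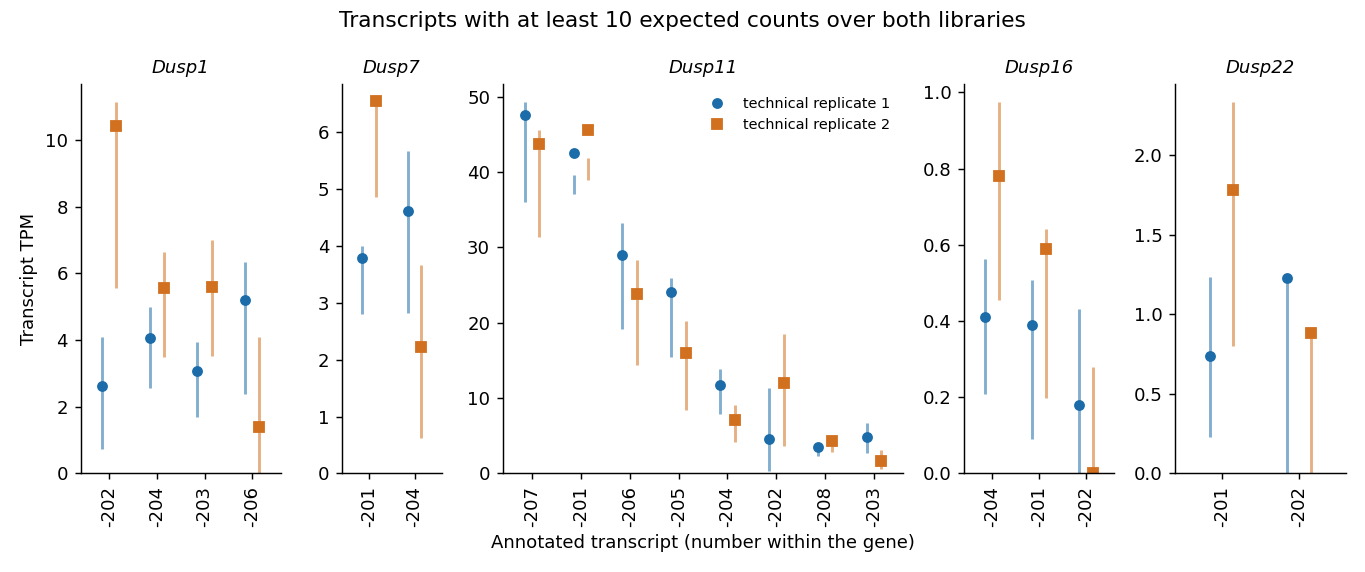
TPM of each transcript with at least 10 expected counts over both libraries, for Dusp1, Dusp7, Dusp11, Dusp16 and Dusp22, as a point for each technical library with the deposited credibility bounds as bars. Dusp1-202 and Dusp7-201 are higher in technical replicate 2 with bounds that do not overlap, and the bounds of the Dusp16 and Dusp22 transcripts overlap.

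The libraries were then compared gene by gene on their counts, which asks how far technical replicates differ in these genes. Each gene was tested with a two-sided exact binomial test on TMM-scaled depths, with Benjamini-Hochberg adjustment over 16553 genes with at least 10 counts. Of the 10 Dusp genes, 4 were higher and 1 was lower in technical replicate 2 at an adjusted p under 0.05, while 34.7% of all genes tested were called, 21.6% as higher and 13.0% as lower. Among the 9958 genes within the count range of the Dusp genes, 44.9% were called, 29.5% as higher and 15.4% as lower. A share of 5 in 10 is near that background, so the calls describe these genes and do not set them apart. The median log2 ratio of the 10 genes (technical replicate 2 over technical replicate 1) was 0.26, against 0.02 over all genes tested.

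The higher genes were 3 nuclear inducible phosphatases and Dusp7. In the newer tables Dusp4 differed most, with a log2 ratio of 1.23 ± 0.16 (counting SE) and an adjusted p of 1.0e-14 (exact binomial test). It was the only member called past 2-fold in these tables, as were 6.46% of all genes tested. Dusp1 had a log2 ratio of 0.76 ± 0.10 (adjusted p = 1.58e-12, exact binomial test) and Dusp5 one of 0.73 ± 0.17 (adjusted p = 0.000133, exact binomial test). These genes were at least 1.5-fold higher, as were 11.7% of all genes tested and 15.4% of the genes within the members' count range. Dusp7 had a log2 ratio of 0.47 ± 0.13 by count (adjusted p = 0.00111, exact binomial test), but one of 0.06 on the log2(TPM + 1) scale. In the older count tables, where Dusp7 had 34 and 88 counts, its log2 ratio was 1.47 (adjusted p = 9.12e-07, exact binomial test), the largest of the members there, against 1.11 for Dusp4. The gene-level bounds of the libraries did not overlap for Dusp1, Dusp4 and Dusp5, as for 21.0% of all genes tested.

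Dusp2, the remaining nuclear inducible gene, was lower in technical replicate 2, with a log2 ratio of −0.34 ± 0.14 (adjusted p = 0.0381, exact binomial test). That call was lost when genes with at least 1 count were tested (adjusted p = 0.0639) and in the older count tables, where it had 69 and 59 counts (adjusted p = 0.861, exact binomial test). The call of Dusp5 was also lost in those tables, at 36 and 56 counts (adjusted p = 0.0574, exact binomial test). The other 5 members did not pass the threshold. Dusp11 and Dusp6 had log2 ratios of 0.04 and 0.05 and changed sign with scaling to total counts, Dusp10 had −0.13, Dusp22 had 0.10 and Dusp16 had 0.42 ± 0.26. The counting errors of Dusp16 and Dusp22, both ± 0.26, are the widest of the 10. The ratio of Dusp16 exceeded its counting error and was still not called (adjusted p = 0.223, exact binomial test). Differences larger than 1 SE could therefore go undetected in both genes.

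**Figure D4:**
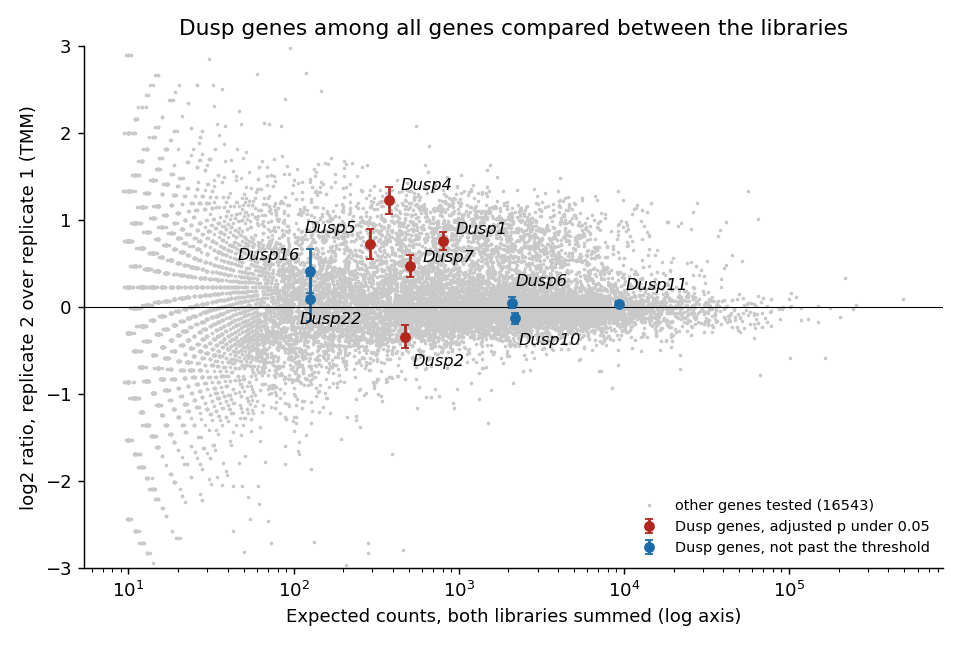
Log2 ratio between the libraries against the summed expected counts (log axis) for all genes tested, with the Dusp genes marked and bars of 1 counting SE; 163 genes lie outside the plotted range of −3 to 3. Dusp4, Dusp1 and Dusp5 lie between 0.73 and 1.23, within the cloud of other genes, and the deeply counted Dusp6, Dusp10 and Dusp11 lie within 0.13 of 0.

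These p-values allow for counting error only. Over the 9903 genes that averaged 100 counts or more, the libraries differed beyond it by a coefficient of variation of 19.5%. When edgeR's exactTest was given a dispersion of 0.01, 2 members were called, Dusp4 (adjusted p = 9.68e-05) and Dusp1 (adjusted p = 0.0133), against 10.8% of all genes. A dispersion of 0.04 stands for a coefficient of variation of 0.2, close to the measured 19.5%. At that setting the same test called 0 members, against 0.707% of all genes. Dusp4 then had an adjusted p of 0.265 and was the 1 member with an unadjusted p under 0.05. Scaling by DESeq2 size factors or by total counts gave 6 called members, Dusp10 being added as lower, against 36.6% and 38.9% of all genes. With a minimum of 1 count 4 were called, against 19.2%, with posterior mean counts 5, against 33.2%, and 4 with the older counts, against 27.0%. Those 4 were Dusp1, Dusp4 and Dusp7 as higher and Dusp10 as lower (log2 ratio −0.20, adjusted p = 0.0417, exact binomial test). GC content moved with the ratios: the fitted log2 ratio over all genes went from −0.19 at 39.0% GC to 0.25 at 59.2% GC. With this trend removed 7 members were called, against 35.5% of all genes. Dusp1, Dusp4 and Dusp5 then had 0.67, 1.12 and 0.60, Dusp7 had 0.31 and Dusp2 had −0.60. Dusp11, at 40.6% GC, was then called higher at 0.16 (adjusted p = 4.16e-07, exact binomial test), and Dusp10 lower at −0.17 (adjusted p = 0.0170, exact binomial test).

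The promoters of Dusp1 and Dusp5, called higher, and of Dusp2, called lower, are shown with the motif matches that they held. Whether these elements bear on the difference between the libraries was not tested. Each line gives 200 bases from 250 to 51 bases before the RefSeq start (GRCm38.p6), 5′ to 3′ in the direction of the gene, with matches to the motifs searched in capitals.
Dusp1 (chr17:26508523-26508722, minus strand): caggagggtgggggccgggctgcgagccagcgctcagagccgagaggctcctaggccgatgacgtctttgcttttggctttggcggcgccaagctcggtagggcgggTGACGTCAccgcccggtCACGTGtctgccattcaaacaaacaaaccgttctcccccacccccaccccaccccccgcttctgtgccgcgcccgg
Dusp5 (chr19:53528895-53529094, plus strand): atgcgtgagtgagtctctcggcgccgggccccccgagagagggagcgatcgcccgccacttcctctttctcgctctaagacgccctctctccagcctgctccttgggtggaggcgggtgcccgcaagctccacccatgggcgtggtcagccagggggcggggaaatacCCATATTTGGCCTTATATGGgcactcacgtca
Dusp2 (chr2:127335909-127336108, plus strand): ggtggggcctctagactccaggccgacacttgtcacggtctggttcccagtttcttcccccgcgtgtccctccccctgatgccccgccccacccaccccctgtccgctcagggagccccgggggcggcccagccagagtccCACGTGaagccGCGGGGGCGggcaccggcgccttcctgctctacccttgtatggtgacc
Dusp1 held the cAMP response element TGACGTCA 143 to 136 bases before the start and the E-box CACGTG 126 to 121 bases before it. Dusp5 held a pair of CArG boxes (the element of serum response factor) back to back, 82 to 73 and 72 to 63 bases before the start. Dusp2 held the E-box CACGTG 109 to 104 bases and the Egr site GCGGGGGCG 98 to 90 bases before the start. RefSeq windows of 300 bases were matched by symbol for 9 of the 10 genes, and none matched Dusp4. Dusp7, also called higher, held no match to the motifs searched. Of 32851 such windows, searched on both strands, 1.79% held TGACGTCA, 7.15% CACGTG, 2.91% GCGGGGGCG and 1.63% a CArG box. Dusp22 also held GCGGGGGCG, 111 to 103 bases before the start. The AP-1 letters TGANTCA, found in 7.81% of windows, and the STAT letters TTCNNNGAA, found in 8.30%, were in none of the 9. These matches are letters in a window, and no binding was measured.

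The other genes of the pathway were read from 8 lists of 83 genes, of which 66 had enough counts to be tested. Of these, 35 were higher and 5 lower in technical replicate 2, with a median log2 ratio of 0.30. Over all genes tested 21.6% were higher and 13.0% lower, and these pathway calls fell from 40 to 16 at a dispersion of 0.01 and to 0 at 0.04 (edgeR's exactTest, where 14 had an unadjusted p under 0.05). Among 19 other dual-specificity and related phosphatases 9 were detected, 5 were higher and 0 lower of 13 tested, and the slingshot phosphatase gene Ssh2 led at 139 and 146 TPM, above every MAP kinase phosphatase. The second slingshot gene named, Ssh1, had 15.5 and 25.0 TPM, Dusp12, which encodes a zinc-binding member, had 17.0 and 29.8 TPM, and Dusp19 had 14.5 and 11.8 TPM (log2 ratio −0.25, not past the threshold). The largest called ratios were those of Dusp3, at 0.37 and 0.80 TPM, below the detection level (2.56, by count, from 4.26 and 21.79 expected counts, a larger difference than in TPM), and Dusp28, at 2.80 and 5.35 TPM (0.92). Dusp8 and Dusp9, which complete the typical MAP kinase phosphatases, were near 0, at 0 and 0.04 TPM and at 0.29 and 0.22 TPM, and they were named after their values were seen. Of the tyrosine phosphatases that act on the same kinases, Ptpn7, a blood cell enzyme, had 232 and 268 TPM (higher in technical replicate 2, log2 ratio 0.21), Ptpn5 had 13.9 and 14.5 TPM and Ptprr 0.06 and 0.31 TPM. Ptpn7 alone thus exceeded the summed level of the 8 Dusp phosphatases in both libraries.

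In the Ras and ERK cascade all 15 genes were detected, 6 were higher and 3 lower. Rasgrp1, the exchange factor that links the T cell receptor to Ras, had 82.0 and 163 TPM (log2 ratio 0.98), and the kinase gene Map2k1 had 29.7 and 68.3 TPM (1.20). Araf, at 163 and 157 TPM, and Nras, at 59.1 and 54.1 TPM, were lower (−0.10 and −0.14). Of 8 JNK cascade genes tested 6 were higher and 1 lower, with Map3k11 at 14.6 and 30.1 TPM (1.18), Map3k4 at 13.4 and 27.3 TPM (0.95), Mapk8ip3 at 37.2 and 52.2 TPM (0.50), Map2k4 at 19.9 and 31.5 TPM (0.59) and Map2k7 at 68.7 and 77.8 TPM (0.24). Of 8 p38 cascade genes tested 5 were higher and 0 lower, with Mapkapk3 at 108 and 123 TPM (0.20), Mapk11 at 37.1 and 55.5 TPM (0.57), Mapk14 at 10.4 and 15.1 TPM (0.42), Mapk12 at 4.37 and 6.22 TPM (0.65) and Map2k3 at 25.8 and 53.6 TPM (1.08). Of 4 ERK5 cascade genes 3 were higher and 0 lower: Mapk7, the ERK5 gene, had 24.8 and 29.1 TPM (0.31), Map2k5 12.7 and 18.2 TPM (0.56) and Map3k2 5.31 and 7.58 TPM (0.40), while Map3k3, at 12.2 and 12.7 TPM (0.02), did not pass. With the GC trend removed, Mapk7 (0.11, adjusted p = 0.179, exact binomial test) and Nras (−0.0861, adjusted p = 0.164, exact binomial test) lost their calls. Called genes were 9 of 15 tested in the Ras and ERK cascade, 7 of 8 for JNK, 5 of 8 for p38 and 3 of 4 for ERK5. Each share was above the 34.7% of all genes tested, and above the 44.9% of genes within the count range of the Dusp genes. With edgeR's exactTest at a dispersion of 0.04, 0 pathway genes were called. These counts describe the libraries, and the cause of the higher shares was not tested.

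The Sprouty and Spred genes, which encode the other feedback inhibitors of Ras and ERK, were mostly low: Spry1 had 8.07 and 12.5 TPM and Spred2 2.46 and 3.44 TPM, both higher in technical replicate 2 (log2 ratios 0.62 and 0.65), while Spred1 had 0.42 TPM in each library and Spry2, Spry3, Spry4 and Spred3 were each at or below 0.26 TPM. Of 13 tested early targets of MAP kinase signalling 7 were higher and 1 lower, beside 21.6% and 13.0% of all genes tested, and at a dispersion of 0.04 no pathway gene was called. Junb, which encodes an AP-1 subunit, had 273 and 541 TPM (0.98), Ier2 had 89.0 and 209.5 TPM (1.23) and Egr1 had 15.7 and 35.3 TPM (1.17), while Egr2 was lower, at 47.2 and 42.6 TPM (−0.13), and Myc, at 170 and 185 TPM, did not pass the threshold. With the GC trend removed the log2 ratio of Junb was 0.47 and that of Ier2 was 0.85. Early targets and Dusp genes were thus both called mostly as higher, with 1 lower gene in each list. Whether anything ties these genes together was not tested. With 2 libraries no likeness of pattern could be measured.

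**Figure D5:**
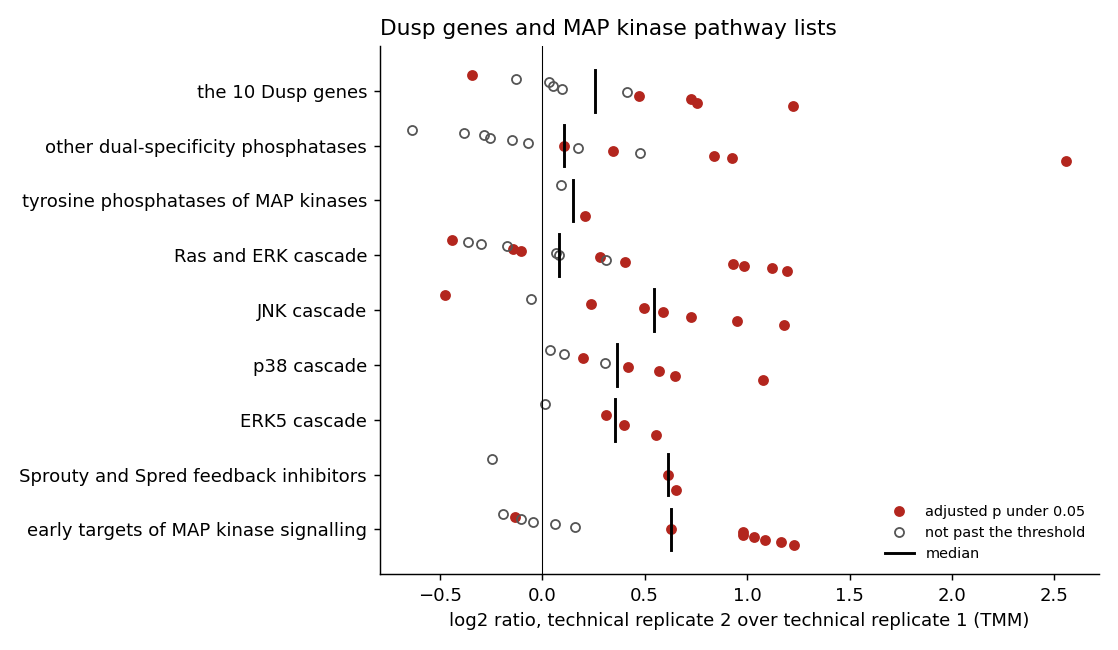
Log2 ratio between the libraries for the tested genes of the Dusp set and of 8 MAP kinase pathway lists, with genes at an adjusted p under 0.05 filled and the median of each list as a line. The median is 0.26 for the 10 Dusp genes and 0.63 for the early targets, and every list holds genes on the higher side.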

How the data were processed

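Polyadenylated RNA was measured in 2 technical libraries of regulatory T cells from 1 biological replicate. Per the file headers and the deposited text descriptions, the authors made gene and transcript tables on mm10 with GENCODE M21; for the aligner and quantifier, a name is not given in the sources used here. In the authors' deposited expected counts, reads that fit several features are divided among them, and the values were rounded for tests. The TPM deposited by the authors is scaled for length and depth. The percent of a gene's TPM per transcript, and the signal of posterior mean TPM with its credibility bounds, were also deposited. Deposited whole-number counts on GENCODE M4 served as an alternative. Rows naming no gene, with 0.307% and 0.242% of counts, stayed out.

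Gene names, positions and transcript classes came from GENCODE M21, transcript sequences likewise, and promoters from RefSeq. Libraries were compared with an exact binomial test (scipy 1.17.1) on library sizes scaled by edgeR 4.0.16 TMM, among genes with at least 10 counts, adjusted by Benjamini-Hochberg at 0.05. Log2 ratios add 0.5 to each count. The quasi-likelihood fit of edgeR had no residual degrees of freedom here and was not run. DESeq2 1.42.0 gave alternative size factors. The GC trend was a lowess fit (span 0.3, genes with at least 50 counts) on the most abundant transcript. Precision is limited by counting error, which the SE and the floor of 3 counts cover alone, because PCR copies of 1 molecule could not be told apart without molecular identifiers. The 10 members and the lists were chosen with earlier results of these data known. Named genes were all members, all genes of lists under 8, and otherwise the 4 most abundant and the 2 with the largest called ratio of each list. The values of 1 gene under this rule are not reported here.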

Additional observations from a re-analysis of the deposited data

How the results depend on the processing

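The members called numbered 5, and between 4 and 7 under DESeq2 size factors, total counts, a minimum of 1 count, posterior mean counts, the older tables and the GC trend removed, which was chosen after seeing the data. With edgeR's exactTest 2 were called at a dispersion of 0.01, and 0 at 0.04, where 1 had an unadjusted p under 0.05. Both tests allow for more spread by construction, and 0.04 is the setting close to the measured coefficient of variation of 19.5%. Of the pathway genes 40 were called, against 16 at 0.01 (chosen after seeing the data) and 0 at 0.04, where 14 had an unadjusted p under 0.05. Detection at 5 TPM left 6 of 10 members. Without replicate 1 or 2, all 10 members were detected, and a protein-coding transcript led in 8 to 10 members, against 9 with both. Counting coding transcripts alone, or only those with the catalytic codons, 9 members reached 1 TPM in both libraries; both counts were chosen after seeing the data. Signs changed only where no call was made: Dusp11 was at −0.028 with total counts, −0.084 in the older tables and −0.12 on the log2(TPM + 1) scale, for which no test was rerun, and Dusp6 at −0.012 with total counts. Map3k3 was at −0.019 with DESeq2 size factors, −0.048 with total counts and −0.070 with the GC trend removed, Ptpn5 at −0.027 with that trend removed, and Myc at −0.0022 with total counts and −0.013 with the trend removed. The cause of these changes was not tested. No paired analysis was possible because the labels give a single group. Depth limits Dusp16 and Dusp22 most, with 126 counts each over both libraries.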
